A study of Mus musculus with 7 samples.

Results

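The IGKV6 family is a group of mouse kappa light chain V genes, and its members here are IGKV6-13, IGKV6-14, IGKV6-15, IGKV6-17, IGKV6-20, IGKV6-23, IGKV6-25 and IGKV6-32. Cells were counted as members when they held exactly 1 productive light chain contig and the first V call of that contig, with the allele removed, was 1 of these 8 genes. In the 6 libraries of a single node and genotype, 2950 of 17822 cells with 1 light chain were members, a share of 16.6%. The remaining cells held 14083 other kappa V genes and 789 lambda light chains. IGKV6 was the most used kappa family, at 17.3% of kappa cells, against 14.5% for IGKV4, the next in order.

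B cell receptors were sequenced from single cells of the deep cervical (dCLN), superficial cervical (sCLN) and inguinal (iLN) lymph nodes of female mice aged 10 to 11 months, either 5xFAD or wild type (WT). The 5xFAD line is transgenic and forms amyloid plaques in the brain, as used to model Alzheimer's disease, and cervical nodes receive fluid draining from the head. Each node and genotype gave 1 library, so that the groups are 5xFAD dCLN, WT dCLN, 5xFAD sCLN, WT sCLN, 5xFAD iLN and WT iLN. Each library combined cells of several hashtag-labelled tubes, the cells were not traced back to animals here, and no spread between animals could be measured. Different nodes may come from the same animals, so the nodes or libraries counted in a test may not be independent. Intervals on shares are exact Clopper-Pearson 95% intervals and cover counting error only, and intervals of a difference combine the 2 intervals of its shares. A further library that mixes all nodes and both genotypes is used in no comparison.

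A kappa light chain gene is made by joining 1 V gene to a J gene (IGKJ1, IGKJ2, IGKJ4 or IGKJ5), and the junction codes for the third complementarity-determining region, a loop that contacts antigen. Few untemplated (N) bases are added at this step, because the enzyme that adds them is mostly off when light chains recombine. The V genes lie in both orientations along the locus, so that some join J by deletion and others by inversion, and a first join can be replaced by joining a V gene further upstream to a J gene further downstream.

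The libraries held 2398 to 4411 barcodes and 59106 to 178958 unique molecular identifiers (UMIs) on the light contigs of kappa cells with 1 light chain. Each library had between 343 and 672 member cells, of which 299 to 605 also held exactly 1 heavy chain contig. Pairs of libraries shared 191 cell barcodes among cells with 1 light chain, 59 of them with a member in at least 1 library. None of those carried a member with the same heavy and the same light junction in both libraries.

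The germline sequences of the 8 genes were 82.0 to 96.2% identical to one another over 261 aligned bases, with a median of 91.8% over 28 pairs. The aligner's germline V sequence of each member was found in the GENCODE transcript of the gene of the same name. All 8 lie on mouse chromosome 6 (build GRCm38) upstream of the J genes. From the J-distal end these are IGKV6-32 (chr6:70074024-70074603, minus strand), IGKV6-25 (chr6:70215400-70215957, plus), IGKV6-23 (chr6:70260409-70260955, minus), IGKV6-20 (chr6:70335841-70336507, minus), IGKV6-17 (chr6:70371439-70371993, plus), IGKV6-15 (chr6:70406469-70406992, minus), IGKV6-14 (chr6:70434952-70435476, minus) and IGKV6-13 (chr6:70457501-70458036, minus). IGKJ1 (chr6:70722562-70722599) is on the plus strand, so that IGKV6-17 and IGKV6-25 are the members in the orientation of the J genes. The J-proximal end of IGKV6-13 lies 264526 bases from IGKJ1 and that of IGKV6-32 lies 647959 bases from it.

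The junction of each member that was carried by the most heavy chain clones is shown. Each was found in all 6 libraries and in 22.6 to 37.7% of the cells of its gene. The letters are from the deposited contigs, 5′ to 3′, from the conserved cysteine codon to the conserved phenylalanine codon, with the bases aligned to J in capitals.
IGKV6-13 with IGKJ5: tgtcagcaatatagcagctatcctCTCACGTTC
IGKV6-14 with IGKJ5: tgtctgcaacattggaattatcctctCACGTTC
IGKV6-15 with IGKJ2: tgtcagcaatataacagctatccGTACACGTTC
IGKV6-17 with IGKJ1: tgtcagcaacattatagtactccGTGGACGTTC
IGKV6-20 with IGKJ2: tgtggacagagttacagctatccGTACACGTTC
IGKV6-23 with IGKJ5: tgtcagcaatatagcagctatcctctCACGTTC
IGKV6-25 with IGKJ2: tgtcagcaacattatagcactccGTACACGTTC
IGKV6-32 with IGKJ2: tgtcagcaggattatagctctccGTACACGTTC
All 8 are 33 bases long. The junctions printed for IGKV6-13 and IGKV6-23 are letter for letter the same, although the aligner placed the boundary between V and J 2 bases apart.

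IGKV6-15, IGKV6-23 and IGKV6-17 were the most used members, and IGKV6-14 the least. IGKV6-15 made up 607 cells and ranked 3 among 90 kappa V genes seen, with library shares between 2.66 and 4.47% of cells (mean 3.44% ± 0.618, SD, n = 6 libraries). IGKV6-23 made up 539 cells (3.00% ± 0.388) and IGKV6-17 made up 517 cells (2.90% ± 0.242), and their library ranges overlapped with that of IGKV6-15. IGKV6-32 followed at 2.18% ± 0.365 and IGKV6-13 at 2.08% ± 0.341, which differ by less than their spread over libraries. IGKV6-25 averaged 1.46% ± 0.327 and IGKV6-20 averaged 0.974% ± 0.460, with library ranges that overlapped. IGKV6-14 was below all other members in 5 libraries, equalled IGKV6-20 in WT iLN, and averaged 0.442% ± 0.176.

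A difference in the share of the family between 5xFAD and WT nodes was not detectable at this depth. In dCLN, 672 of 3867 cells were members in 5xFAD (17.4%, interval 16.2 to 18.6) and 571 of 3582 in WT (15.9%, 14.8 to 17.2). In sCLN, 389 of 2395 cells were members in 5xFAD (16.2%, 14.8 to 17.8) and 604 of 3549 in WT (17.0%, 15.8 to 18.3). In iLN, 371 of 2178 cells were members in 5xFAD (17.0%, 15.5 to 18.7) and 343 of 2251 in WT (15.2%, 13.8 to 16.8). The 5xFAD share was higher in dCLN and iLN and lower in sCLN, and the intervals of the paired libraries overlapped in all 3 nodes. The differences, 5xFAD minus WT, were 1.44 percentage points in dCLN (-0.277 to 3.15), -0.777 in sCLN (-2.71 to 1.19) and 1.80 in iLN (-0.402 to 4.00). Their mean was 0.819 ± 1.39 points (SD, n = 3 nodes), with p = 0.5 by an exact two-sided sign-flip test, which can go no lower than 0.25 with 3 nodes. With each clone counted once, the differences were 0.744, -0.425 and 1.94 points and the exact p was again 0.5.

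Nor was one detectable between cervical and inguinal nodes. The dCLN share minus the iLN share was 0.344 points in 5xFAD (-1.68 to 2.33) and 0.703 in WT (-1.25 to 2.62). The sCLN share minus the iLN share was -0.792 points in 5xFAD (-2.99 to 1.40) and 1.78 in WT (-0.195 to 3.72). Every one of these intervals includes 0. The dCLN difference in 5xFAD turned to -0.101 points (-2.28 to 2.02) with each clone once.

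**Figure D1:**
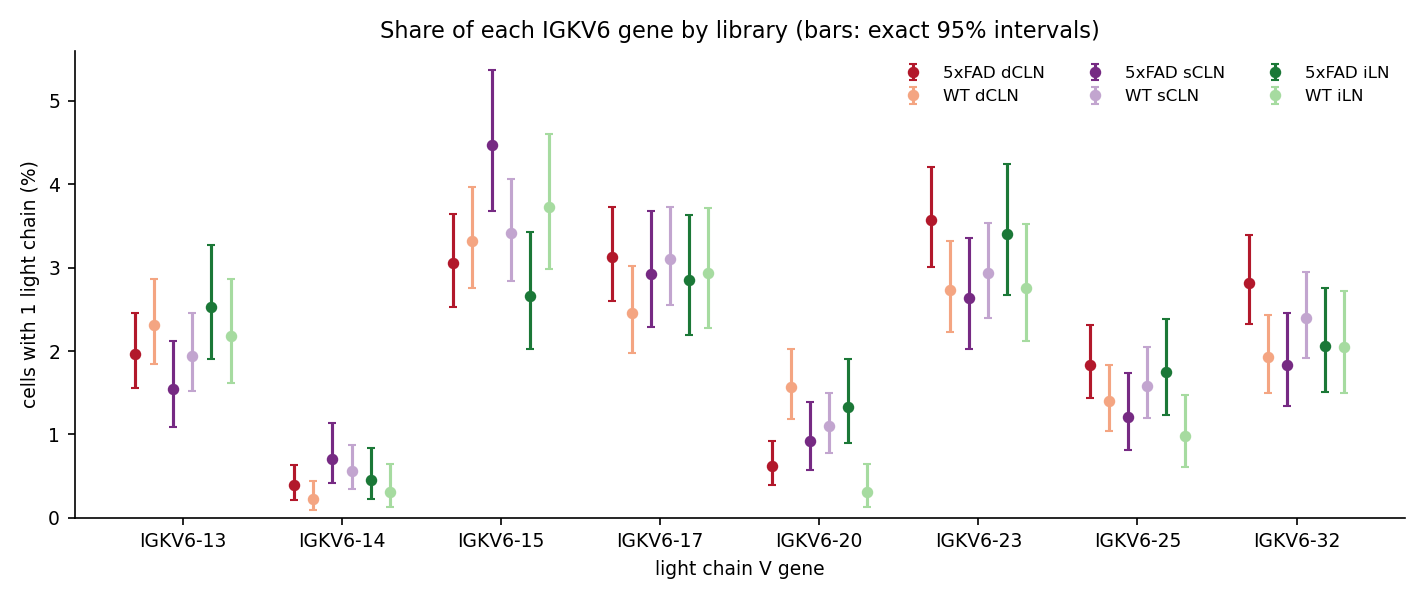
Share of each IGKV6 gene among cells with 1 light chain (percent, vertical axis) in the 6 libraries, with exact 95% intervals as bars. IGKV6-20 is the member whose 5xFAD and WT intervals are apart within a node. It was lower in 5xFAD than in WT in dCLN (0.621 against 1.56%) and higher in iLN (1.33 against 0.311%).

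Among the members, IGKV6-20 differed between the 5xFAD and WT libraries of a node, in opposite directions in 2 nodes. In dCLN it was carried by 24 cells in 5xFAD (0.621%, interval 0.398 to 0.922) and by 56 cells in WT (1.56%, 1.18 to 2.03). In sCLN it was carried by 22 cells in 5xFAD (0.919%, 0.577 to 1.39) and by 39 cells in WT (1.10%, 0.783 to 1.499). In iLN it was carried by 29 cells in 5xFAD (1.33%, 0.893 to 1.91) and by 7 cells in WT (0.311%, 0.125 to 0.640). Its 5xFAD share was thus 0.397 times the WT share in dCLN (0.235 to 0.651), 0.836 times in sCLN (0.472 to 1.45) and 4.28 times in iLN (1.84 to 11.6). The library intervals were apart in dCLN and iLN and overlapped in sCLN. Libraries of the same genotype differed as well. The interval of WT iLN was also apart from those of WT dCLN and WT sCLN, over all cells and with each clone once. The intervals of the 5xFAD libraries overlapped with one another. IGKV6-20 was the 1 member of 8 called in dCLN, where 1.35% of 74 kappa V genes were called, and in iLN, where 2.86% of 70 genes were called. In sCLN no member was called and 0 of 74 genes were, a share of 0%.

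The IGKV6-20 cells were spread over many clones. With each clone once, IGKV6-20 stood at 0.612% in 5xFAD and 1.41% in WT dCLN, and at 1.24% in 5xFAD and 0.311% in WT iLN, with intervals still apart in both nodes, beside 2.74% of 73 kappa V genes called in dCLN and 2.94% of 68 in iLN. The 21 cells with 1 heavy chain in 5xFAD dCLN formed 21 clones with 19 heavy V genes, and the 43 in WT dCLN formed 39 clones with 31 heavy V genes. The 25 such cells in 5xFAD iLN formed 23 clones and the 6 in WT iLN formed 6 clones. With 1 library per group and no replicate, there is no test of these differences between animals.

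For 4 other members the interval of a difference excluded 0 while the library intervals overlapped. IGKV6-15 was 1.06 points higher in 5xFAD than in WT in sCLN (4.47 against 3.41%), and its difference in iLN was -1.07 points (2.66 against 3.73%). Its libraries of the same genotype differed as well. The IGKV6-15 interval of 5xFAD sCLN (3.68 to 5.37) was apart from those of 5xFAD dCLN (2.53 to 3.64) and 5xFAD iLN (2.03 to 3.43). With each clone once it was apart from that of 5xFAD iLN only. IGKV6-23 was 0.833 points higher in 5xFAD dCLN (3.57 against 2.74%). IGKV6-32 was 0.892 points higher in 5xFAD dCLN (2.82 against 1.93%). IGKV6-25 was 0.767 points higher in 5xFAD iLN (1.74 against 0.977%). By this looser rule, with IGKV6-20 counted, 3 of 8 members were called in dCLN beside 9.46% of 74 kappa V genes, 1 in sCLN beside 8.11% of 74, and 3 in iLN beside 7.14% of 70. With each clone once, the intervals of IGKV6-15 in iLN, IGKV6-23 and IGKV6-32 included 0, and that of IGKV6-13 in dCLN (-0.726 points, 1.66 against 2.39%) excluded it. That left 2 of 8 members in dCLN beside 5.48% of 73 genes, 1 in sCLN beside 7.14% of 70, and 2 in iLN beside 7.35% of 68.

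In each library IGKJ1, the first J gene of the locus, was less frequent and IGKJ5, the last, more frequent with IGKV6 than with other kappa V genes, but neither difference passed the adjusted test. For IGKJ1 the members were divided, and 3 of the 8 stood above other kappa genes. IGKJ1 was joined to 24.1% ± 2.99 of IGKV6 cells and 30.9% ± 1.62 of other kappa cells (SD, n = 6 libraries), and the share was lower with IGKV6 in 6 of 6 libraries. The mean difference was -6.77 ± 3.81 points, with p = 0.031 by an exact two-sided sign-flip test over libraries, the smallest that 6 libraries allow, and 0.156 after Benjamini-Hochberg adjustment over 10 measures. IGKJ5 was joined to 30.6% ± 3.00 of IGKV6 cells and 25.2% ± 1.70 of other kappa cells, higher in 6 of 6 libraries, with a mean difference of 5.40 ± 2.40 points and the same exact and adjusted p. IGKJ2 (29.7 and 29.8%) and IGKJ4 (15.6 and 14.1%) had adjusted p of 0.938 and 0.312 by the same exact test. None of the 10 measures passed the adjusted threshold of 0.05. With 6 libraries, this threshold could be passed only if most of the 10 measures reached the smallest exact p. Not passing therefore does not show that IGKV6 and other kappa genes were alike.

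The members themselves fell far apart in J use. IGKJ1 was joined to 9.39% of IGKV6-15 cells (interval 7.19 to 11.995), 11.9% of IGKV6-20, 12.1% of IGKV6-23, 15.6% of IGKV6-14 and 18.2% of IGKV6-13 cells. It was joined to 32.4% of IGKV6-32 (27.8 to 37.3), 40.2% of IGKV6-25 and 45.6% of IGKV6-17 cells (41.3 to 50.1). The 3 members with high IGKJ1 use overlapped with none of the other 5 in these pooled intervals. Over 57 other kappa V genes with at least 50 cells, IGKJ1 use ran from 0 to 59.5% with a median of 33.6%, so that both groups of members lie inside the range of other genes. IGKJ2 was the most used J gene of IGKV6-15 (41.0%) and IGKV6-20 (39.0%). IGKJ5 was the most used J gene of IGKV6-13 (39.6%), IGKV6-14 (45.5%) and IGKV6-23 (36.9%), and IGKJ1 that of the other 3.

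**Figure D2:**
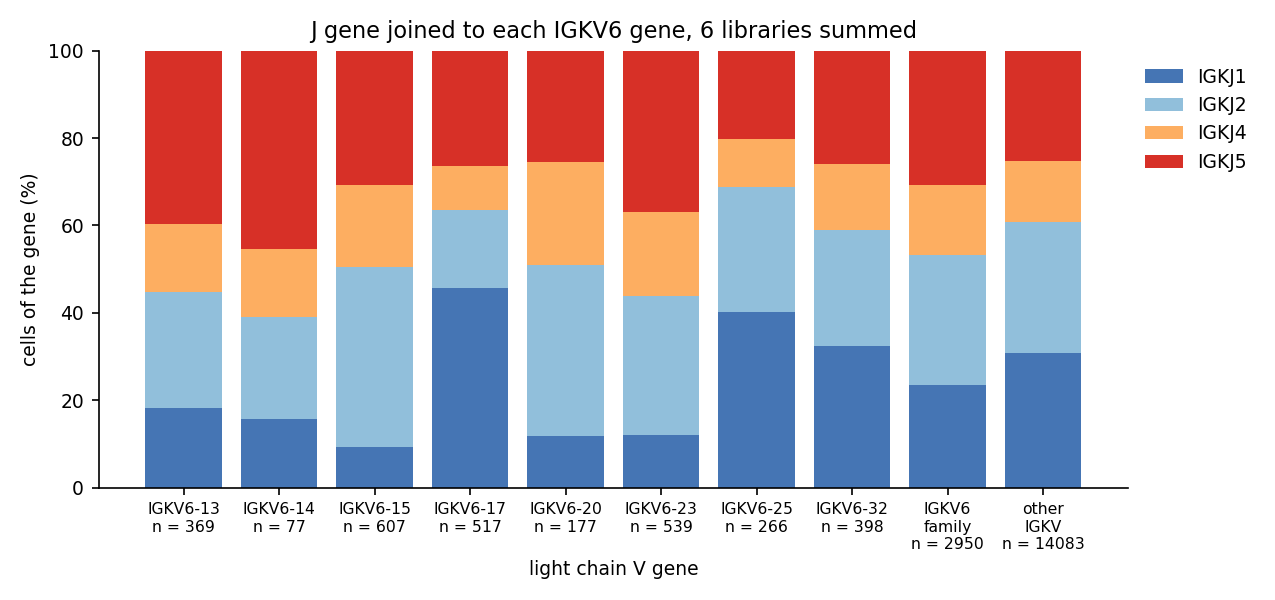
Percent of cells of each IGKV6 gene, of the family and of all other kappa V genes (vertical axis) joined to IGKJ1, IGKJ2, IGKJ4 or IGKJ5, with the 6 libraries summed. IGKJ1 takes 32.4 to 45.6% of IGKV6-17, IGKV6-25 and IGKV6-32 cells and 9.39 to 18.2% of the cells of the other 5 members.

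The members with low IGKJ1 use share the letters TATCC at the end of the germline V gene, as in the junctions printed above, and the 3 with high use end in CTCCTCC. Both were read on the coding strand of the germline V sequence after the first 15 bases of the junction. The 2 members in the orientation of IGKJ1, IGKV6-17 and IGKV6-25, are among the 3 with high use, but IGKV6-32 is in the opposite orientation. Among the 57 other genes, 7 hold TATCC in the same stretch, and their IGKJ1 use ran from 0.353 to 46.5% with a median of 32.9%. A further 25 hold CTCC without TATCC, as the 3 members with high use do, and ran from 10.1 to 59.5% (median 39.4%). The longer CTCCTCC was not looked for in other genes. Other genes with TATCC, or with CTCC without TATCC, thus did not keep to the ranges of the members.

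IGKV6-13 was present in 2 forms in each of the 6 libraries. In 253 of 291 unswitched cells (86.9%) its V region carried the same 4 mismatches to the germline sequence used by the aligner, T40A, G168A, C273T and C312T, written as germline base, IMGT position counted from the first base of V, and base in the cell. Over all 369 cells, 318 held all 4 mismatches, 51 held none of them and 0 held a mixture. Of the 4, T40A changes an amino acid and the others do not. The forms are shown up to the cysteine codon, with the differing bases in capitals.
IGKV6-13, 4-mismatch form: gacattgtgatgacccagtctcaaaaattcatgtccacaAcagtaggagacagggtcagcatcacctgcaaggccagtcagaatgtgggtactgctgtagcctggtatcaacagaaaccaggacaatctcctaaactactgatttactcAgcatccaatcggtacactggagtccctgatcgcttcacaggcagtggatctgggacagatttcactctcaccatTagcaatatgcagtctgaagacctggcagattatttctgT
IGKV6-13, germline form: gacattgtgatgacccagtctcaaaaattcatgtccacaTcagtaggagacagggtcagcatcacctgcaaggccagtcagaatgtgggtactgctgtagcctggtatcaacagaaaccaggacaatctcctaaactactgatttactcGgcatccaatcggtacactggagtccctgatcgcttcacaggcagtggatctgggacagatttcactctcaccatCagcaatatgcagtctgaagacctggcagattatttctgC
The germline form was found in the GENCODE transcript and the 4-mismatch form was not. Of all germline V genes in the files, the 4-mismatch form is nearest to IGKV6-13, with 4 differences, and next to IGKV6-23, with 11.

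The 4-mismatch form made up 81.6% of IGKV6-13 cells in 5xFAD dCLN (62 of 76) and 86.7% in WT dCLN (72 of 83). It made up 89.2% in 5xFAD sCLN (33 of 37) and 84.1% in WT sCLN (58 of 69), and 89.1% in 5xFAD iLN (49 of 55) and 89.8% in WT iLN (44 of 49). The intervals of all 6 libraries overlapped. The form was carried by 256 of 297 clones. Its 270 cells with a heavy chain used 65 heavy V genes, and the 43 such cells of the germline form used 31. These counts grow with the number of cells. In 304 of the 318 cells the V sequence up to the cysteine was identical, and so it was in 49 of the 51 cells of the germline form. None of the other 7 members had a mismatch shared by more than 20% of its unswitched cells, and over all kappa V genes with at least 30 unswitched cells 4 of 71 had one (5.63%).

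Within IGKV6-13, the J gene differed between the 5xFAD and the WT library of dCLN. IGKJ5 was joined to 46 of 76 cells in 5xFAD dCLN (60.5%, interval 48.6 to 71.6) and to 21 of 83 in WT dCLN (25.3%, 16.4 to 36.04). In sCLN it was joined to 12 of 37 cells in 5xFAD (32.4%) and 21 of 69 in WT (30.4%), and in iLN to 21 of 55 in 5xFAD (38.2%) and 25 of 49 in WT (51.0%). The dCLN difference was 35.2 points (19.2 to 49.4), while the intervals of the pairs in sCLN and iLN overlapped. Libraries of the same genotype differed as well. Over all cells the interval of WT iLN (36.3 to 65.6) was apart from that of WT dCLN and overlapped with that of 5xFAD dCLN. With each clone once, the intervals of WT iLN and WT dCLN overlapped. With each clone once, IGKJ5 was joined to 34 of 57 clones in 5xFAD dCLN (59.6%, 45.8 to 72.4) and to 16 of 66 in WT dCLN (24.2%, 14.5 to 36.4), again apart. The 40 IGKJ5 cells with a heavy chain in 5xFAD dCLN used 27 heavy V genes.

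IGKJ1 and IGKJ2 moved the other way in the same pair. IGKJ1 was joined to 5 of 76 IGKV6-13 cells in 5xFAD dCLN (6.58%) and 20 of 83 in WT dCLN (24.1%). IGKJ2 was joined to 10 of 76 (13.2%) and 27 of 83 (32.5%), with library intervals that overlapped. The J shares of a gene depend on one another, so these are not separate results. Of 28 pairs of a member and a J gene compared in dCLN, IGKV6-13 with IGKJ5 and with IGKJ1 were the 2 with intervals apart. Over any kappa V gene and J gene, 1.95% of 256 pairs were apart. In sCLN IGKV6-17 with IGKJ1 was apart, at 57.1% of 70 cells in 5xFAD and 33.6% of 110 in WT, 1 of 32 member pairs beside 0.439% of 228 pairs. In iLN none of 24 member pairs was apart, beside 0% of 196 pairs. With each clone once, of these only IGKV6-13 with IGKJ5 in dCLN remained apart, beside 1.21% of 248 pairs.

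**Figure D3:**
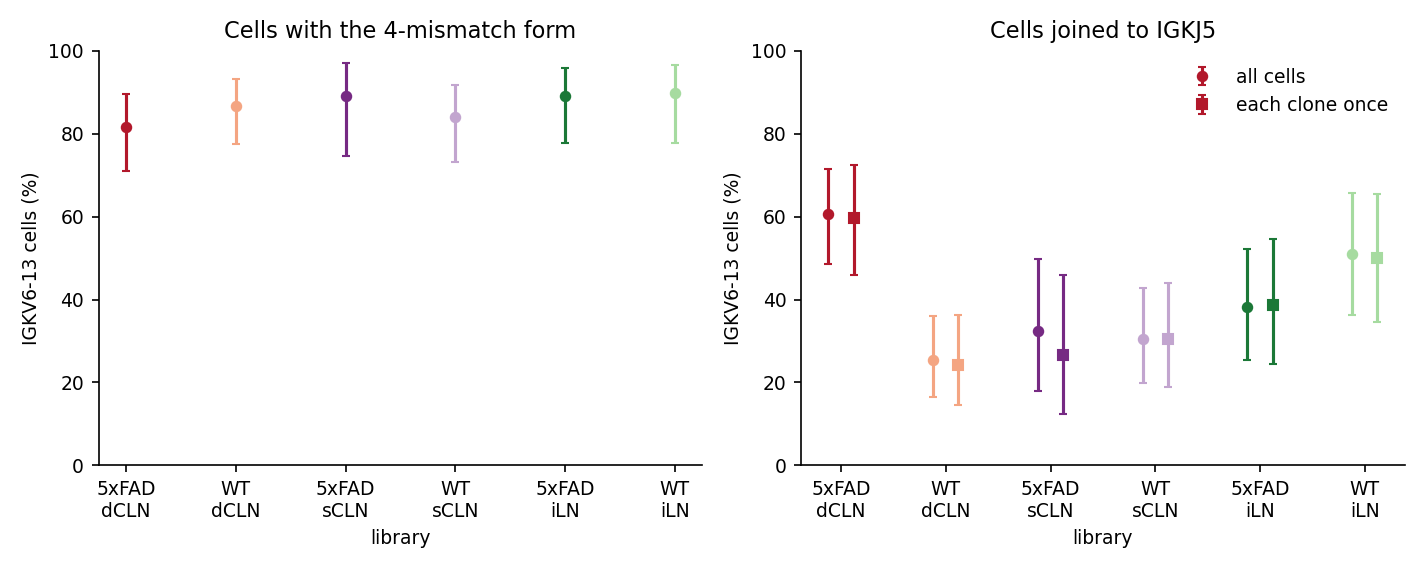
Percent of IGKV6-13 cells (vertical axes) with the 4-mismatch V form (left) and joined to IGKJ5 (right) in the 6 libraries, with exact 95% intervals, and on the right also with each clone once (squares). The form runs from 81.6 to 89.8% in all libraries, while IGKJ5 use is 60.5% in 5xFAD dCLN and 25.3% in WT dCLN.

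Most cells of the family carried a junction found in every library. The 2950 cells held 243 distinct nucleotide junctions, and 82.3% of the cells carried a junction found in all 6 libraries, against 75.5% of the 14083 cells with other kappa V genes. By library this share ran from 78.8% in WT dCLN to 86.0% in WT iLN for IGKV6 and from 73.3 to 78.8% for other genes. These shares were not thinned to equal numbers of cells per gene. Junctions of 33 bases made up 92.2% ± 1.35 of IGKV6 cells and 90.96% ± 0.468 of other kappa cells (SD, n = 6 libraries), with an adjusted p of 0.312 by the exact sign-flip test. The junction of IGKV6-15 with IGKJ2 printed above was the most common of the family, in 177 cells of 157 heavy clones with 57 heavy V genes. It was seen in 29 cells of 5xFAD dCLN, 34 of WT dCLN, 28 of 5xFAD sCLN, 45 of WT sCLN, 19 of 5xFAD iLN and 22 of WT iLN.

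Other junctions carried by many heavy clones were also found in all 6 libraries. The printed IGKV6-23 junction was seen in 157 cells of 132 heavy clones and the printed IGKV6-17 junction in 135 cells of 111 clones. A further pair belongs to the 5 most widely paired and shows the other common join of the same V genes.
IGKV6-15 with IGKJ5: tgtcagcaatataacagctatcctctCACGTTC
IGKV6-23 with IGKJ2: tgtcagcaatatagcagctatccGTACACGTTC
The IGKV6-15 junction was seen in 176 cells of 148 heavy clones, with 34 cells in 5xFAD dCLN and 29 in WT dCLN, 31 in 5xFAD sCLN and 38 in WT sCLN, and 12 in 5xFAD iLN and 32 in WT iLN. The counts were furthest apart in iLN, and no test was made of single junctions. The IGKV6-23 junction with IGKJ2 was seen in 119 cells of 100 heavy clones.

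The number of distinct junctions differed between members. Thinned to 70 cells each, IGKV6-13 held 22.7 distinct junctions, against 5.82 to 22.1 (median 12.7) for 54 other kappa V genes with enough cells. The forms of IGKV6-13 differ in the cysteine codon, so that the same join can count as 2 junctions. With that codon left out its 54 distinct junctions over all cells were 43, and at 70 cells IGKV6-13 held 18.6, still the most of the members, and 6 of the 54 other genes held more. With the codon included, IGKV6-14 held 9.62 and IGKV6-25 held 11.1, and the other 5 held 13.1 to 15.1. The share of cells whose junction was seen in all 6 libraries was 89.6 to 92.9% for IGKV6-15, IGKV6-17, IGKV6-25 and IGKV6-32, and 53.1 to 80.9% for the others. The 54 other kappa V genes ran from 0 to 94.5% with a median of 77.3%, a range that holds every member. This share was not thinned to equal numbers of cells. It was lowest in IGKV6-20 (53.1% of 177 cells) and IGKV6-14 (55.8% of 77), the members with the fewest cells. For IGKV6-13 (62.1%) the cysteine codon was included, so that its 2 forms count apart. IGKV6-13 and IGKV6-23 had 22 junctions in common, carried by 808 cells, and no other pair of members shared one.

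N bases were assigned to 17.1% of IGKV6-13 junctions and to 0.503 to 4.08% of those of the other members. In the 6 libraries the aligner's V match of IGKV6-13 never ran past IMGT position 333, while that of IGKV6-23 reached position 335. Among cells that carried one of the 22 junctions that both genes make, 41 of 294 IGKV6-13 cells (13.9%) and 9 of 514 IGKV6-23 cells (1.75%) were assigned N bases. The assignment of N bases to IGKV6-13 is thus not comparable with that of the other members. Over the family, IGKV6-13 included, 95.6% ± 1.38 of IGKV6 cells and 96.0% ± 0.300 of other kappa cells had none (SD, n = 6 libraries), with an adjusted p of 0.556 by the exact sign-flip test. Without IGKV6-13 the direction turned, at 97.6% ± 1.23 of IGKV6 cells, higher in 5 of 6 libraries, with an adjusted p of 0.156 by the same exact test.

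Cells with an IGKV6 light chain had more light chain UMIs than other kappa cells. The median was 40 against 29 in 5xFAD dCLN, 31 against 24 in WT dCLN, 37 against 27 in 5xFAD sCLN, 37 against 28 in WT sCLN, 32 against 23 in 5xFAD iLN and 36 against 25 in WT iLN. It was higher for IGKV6 in 6 of 6 libraries, while the median of heavy chain UMIs was 11 in both. UMI counts reflect transcript abundance as well as capture and amplification of each V gene, which cannot be told apart here.

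IGKV6-15 had the highest median, 44 light chain UMIs, and IGKV6-14 the lowest, 10. The library medians of IGKV6-14 ran from 8 to 14, below those of the other members in every library, which ran from 27 to 49. Its median of heavy chain UMIs was 11, within the range of 9 to 12 of the other members. Over 54 other kappa V genes with at least 70 cells, the median number of light UMIs ran from 11 to 43.

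**Figure D4:**
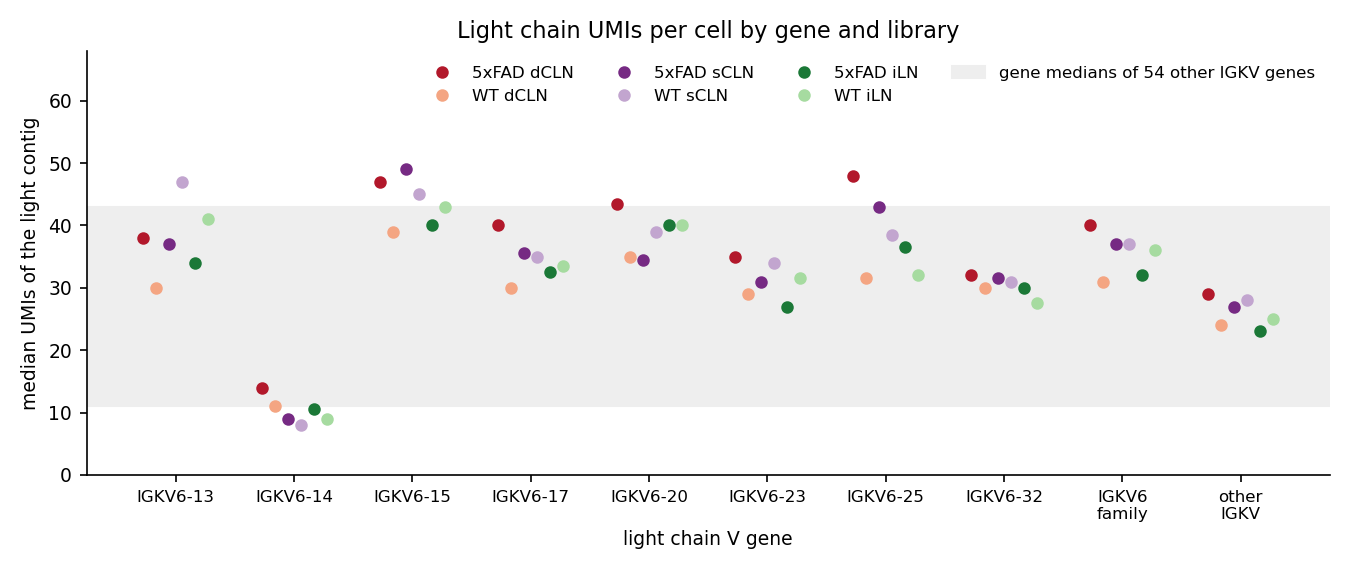
Median UMIs of the light chain contig per cell (vertical axis) for each IGKV6 gene, the family and other kappa V genes, with a point per library. The grey band spans the medians of 54 other kappa V genes, 11 to 43 UMIs, and IGKV6-14 lies at 8 to 14 in every library.

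Most IGKV6 cells were unswitched, that is, they expressed IgM or IgD. Of 2556 member cells with an isotype, 75 were switched to IgG or IgA (2.93%, interval 2.31 to 3.66), and of 12303 other kappa cells, 403 were (3.28%, 2.97 to 3.61). Of the 75 switched IGKV6 cells, 30 were IgG2b, 23 IgG2c, 16 IgG1, 3 IgG3 and 3 IgA. IgA made up 4% of switched IGKV6 cells and 10.9% of 403 other switched cells. The switched share by library was 2.52% ± 1.80 for IGKV6 and 3.02% ± 1.34 for other kappa cells (SD, n = 6 libraries), with an adjusted p of 0.556 by the exact sign-flip test. By member it ran from 1.59% in IGKV6-14 (1 of 63 cells) to 5.21% in IGKV6-13 (16 of 307), with overlapping intervals.

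In dCLN, the share of the family among switched cells differed between the genotypes. In 5xFAD dCLN 32 of 140 switched cells were IGKV6 (22.9%, interval 16.2 to 30.7), and in WT dCLN 10 of 113 were (8.85%, 4.33 to 15.7). In sCLN 6 of 56 were IGKV6 in 5xFAD (10.7%) and 21 of 137 in WT (15.3%), and in iLN 4 of 23 in 5xFAD (17.4%) and 2 of 30 in WT (6.67%). The intervals were apart in dCLN and overlapped in the other nodes, and this comparison was chosen after its values were seen. With each clone once, the dCLN shares were 22.5% of 120 in 5xFAD (15.4 to 31.0) and 11.5% of 87 in WT (5.65 to 20.1), and the intervals overlapped. Among unswitched cells the dCLN shares were 16.7% in 5xFAD and 16.1% in WT. Over the 6 libraries the IGKV6 share was 13.6% ± 6.03 of switched and 16.4% ± 0.736 of unswitched cells, with an adjusted p of 0.417 by the exact sign-flip test.

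**Figure D5:**
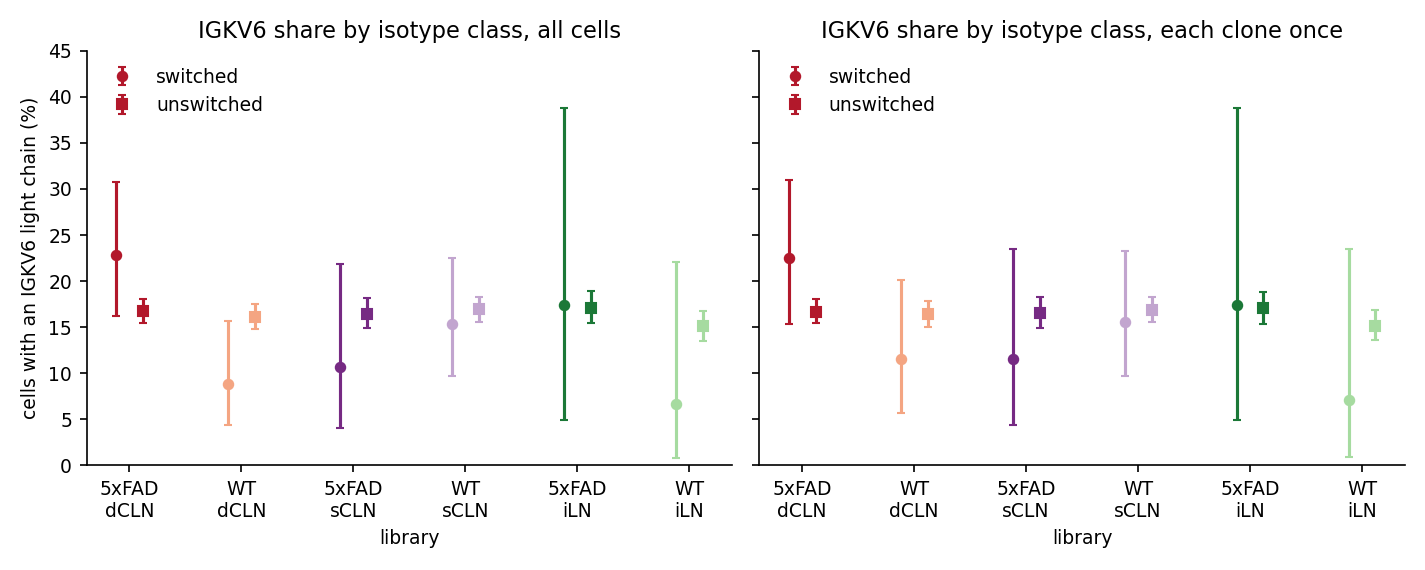
Percent of switched cells (circles) and unswitched cells (squares) with an IGKV6 light chain (vertical axis) in the 6 libraries, with exact 95% intervals, counted over all cells (left) and with each clone once (right). The switched shares of 5xFAD dCLN (22.9%) and WT dCLN (8.85%) are apart over all cells and overlap with each clone once (22.5 and 11.5%).

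Most switched IGKV6 cells carried mutated light chains, and their difference from other kappa genes did not pass the test. The V region differed from germline at 2.29% ± 0.906 of bases in switched IGKV6 cells and 1.96% ± 0.199 in switched cells with other kappa genes (SD, n = 6 libraries). The difference of 0.331 ± 0.840 points had an adjusted p of 0.556 by the exact sign-flip test and was positive in 3 of 6 libraries. These means rest on 2 to 32 switched IGKV6 cells per library, and without WT iLN, with 2 cells and a difference of 1.72 points, the mean difference was 0.0520. The 4-mismatch form of IGKV6-13 adds to this measure, since unswitched IGKV6-13 cells differed from germline at 1.23% of bases and the unswitched cells of the other members at 0 to 0.0674%. Mismatches were counted instead against the commonest sequence of each gene in unswitched cells. The switched cells then ran from 0.255% of bases in IGKV6-20 (3 cells) to 2.78% in IGKV6-13 (16 cells of 12 clones). IGKV6-23 stood at 2.40% and IGKV6-32 at 1.22%. The germline form, held by 3 switched IGKV6-13 cells, counts as mutated by this measure. Over the whole family this gave 1.89% of bases in 75 switched cells and 0.0236% in 2481 unswitched cells. Of the 75 switched cells, 12 had no mismatch in either chain and 9 had mismatches in the heavy chain only.

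Heavy chain partners of the family were broad. The 2591 member cells with 1 heavy chain used 92 heavy V genes in 2402 clones, and IGHV1, the largest heavy V family, made up 56.6% ± 3.20 of partners of IGKV6 and 59.4% ± 1.04 of partners of other kappa genes (SD, n = 6 libraries). The difference was -2.77 ± 3.35 points, negative in 5 of 6 libraries, with an adjusted p of 0.312 by the exact sign-flip test. The 5 most frequent partners were IGHV1-26 (154 cells), IGHV3-6 (115), IGHV2-2 (99), IGHV1-64 (91) and IGHV9-3 (89). IGHV2-2 made up 3.82% of IGKV6 partners (interval 3.12 to 4.63) and 2.498% of other partners (2.23 to 2.79), higher in 6 of 6 libraries. IGHV3-6 made up 4.44% of IGKV6 partners (3.68 to 5.30) and 3.37% of other partners (3.06 to 3.70), also higher in 6 of 6, with intervals that overlap. IGHV1-26 stood at 5.94 and 6.38%, IGHV1-64 at 3.51 and 3.08% and IGHV9-3 at 3.43 and 3.98%, with overlapping intervals. With each clone once, IGHV2-2 stood at 3.71 and 2.46% and IGHV3-6 at 4.47 and 3.37%. These 5 partners were picked by frequency, and single partners were not tested. The share of all heavy V genes with intervals apart is not given here, so the IGHV2-2 difference has no background beside it.

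The partners varied between members. By member, IGHV1 made up 49.7% of partners of IGKV6-23 (interval 45.1 to 54.3) and 61.0% of partners of IGKV6-15 (56.7 to 65.1), the lowest and the highest, and these intervals were apart. IGHV2-2 made up 5.10% of partners of IGKV6-23 and 4.81% of those of IGKV6-15, against 2.15% of those of IGKV6-25 and 2.56% of those of IGKV6-32, with overlapping intervals. IGHV1-26 made up 12.7% of the 63 partners of IGKV6-14 (5.65 to 23.5) and 4.00% of the 150 partners of IGKV6-20 (1.48 to 8.503).

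Clones of IGKV6 cells were small. A clone was taken as cells of 1 library with the same heavy V, J and junction length, heavy junctions within 0.15 differences per base, and the same light V, J and junction length. The share of member cells in clones of 2 or more was 6.78% in 5xFAD dCLN and 10.5% in WT dCLN, 6.84% in 5xFAD sCLN and 11.0% in WT sCLN, and 7.85% in 5xFAD iLN and 4.68% in WT iLN. Other kappa cells stood at 5.48% in 5xFAD dCLN and 15.4% in WT dCLN, 8.02% in 5xFAD sCLN and 10.3% in WT sCLN, and 6.56% in 5xFAD iLN and 6.16% in WT iLN. Clones of 3 or more cells numbered 1 in 5xFAD dCLN and 4 in WT dCLN, with 0 in the other libraries, while other kappa cells had 7 and 15 in these dCLN libraries and 2 to 3 in each of the others. The largest had 5 cells in 5xFAD dCLN, with IGKV6-13 and IGKJ5 beside IGHV1-53 and IGHJ2. Of its cells 4 were IgG2b and 1 was IgM, and their heavy V regions differed from germline at 2.38% of bases. The 4 clones of WT dCLN had 3 cells each, all IgM or IgD with no heavy V mismatch, and used IGKV6-13 in 2 clones, IGKV6-15 in 1 and IGKV6-23 in 1.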

How the data were processed

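Each of 7 samples had 1 table of assembled receptor contigs with V, D and J calls, mutation and junction columns. The deposited UMI and read columns are counts per contig, not normalized, and the deposited V identity column is a fraction of aligned V bases equal to germline. Cell Ranger 6.0.1, Seurat 4.1.0 and mm10 are named in the submitters' processing notes, and the germline set of the V calls is not given in the sources used here. Every contig was marked productive by the authors, and no cells or doublets were removed beyond the requirement of exactly 1 light contig.

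Mutation is the percent of aligned V bases that differ from the germline bases of the same row. Shares were compared within each node, with no test, and over 3 nodes or 6 libraries by exact sign-flip tests in Python 3.11.15 with scipy 1.17.1 and numpy 2.4.6. A kappa V gene was called between libraries when their exact intervals were apart, over genes with 10 or more cells in both libraries together, or for J genes 10 or more in each. Where a clone counts once, only cells with 1 heavy and 1 light contig enter, represented by the cell with most light UMIs. Clones and mutation were tested on simulated data. Gene coordinates are from GENCODE on GRCm38, the assembly that mm10 names.

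The text names all 8 members, the 5 most frequent heavy partners, the junctions with most heavy clones and the largest clones. Members, lists and tests were chosen with earlier results of these data known, and the J genes within a member, light UMIs and the IGKV6-13 forms were looked at after the values were seen.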

Additional observations from a re-analysis of the deposited data

Results flagged for a closer look

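Several differences between 5xFAD and WT were not the same in each node, judged by an interval of the difference between nodes that excludes 0. These intervals cover counting error only, 27 such comparisons were made for the shares of the family and its members, 76 for the J genes of members with 10 or more cells in each library, and no adjustment was applied.

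For IGKV6-20, the 5xFAD minus WT share in dCLN was 1.96 points below that in iLN (a difference of -1.96, interval -2.76 to -1.23) and -0.762 points from that in sCLN (-1.53 to -0.0464). In sCLN it was -1.20 points from that in iLN (-2.00 to -0.414).

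For IGKV6-15 the sCLN difference was 2.13 points above that of iLN (0.646 to 3.64), and the dCLN difference was -1.33 points from that of sCLN (-2.68 to -0.0184). For IGKV6-32 the dCLN difference was 1.45 points above that of sCLN (0.393 to 2.48). For IGKV6-25 the sCLN difference was -1.13 points from that of iLN (-2.09 to -0.171).

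Of the 76 J gene comparisons, 7 had an interval that excludes 0 (9.21%). For IGKV6-13 cells joined to IGKJ5, the 5xFAD minus WT difference in dCLN was 33.2 points above that in sCLN (7.38 to 56.9) and 48.1 points above that in iLN (22.2 to 72.1). For IGKV6-13 cells joined to IGKJ1 the dCLN difference was -23.5 points from that in iLN (-42.2 to -3.92). For IGKV6-17 cells joined to IGKJ1 the dCLN difference was -23.4 points from that in sCLN (-43.8 to -2.37). For IGKV6-17 cells joined to IGKJ2 the dCLN difference was 21.0 points above that in iLN (3.48 to 37.7). For IGKV6-17 cells joined to IGKJ5 the dCLN difference was -24.2 points from that in iLN (-44.4 to -3.73) and the sCLN difference was -29.0 points from it (-48.9 to -7.79).

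Some IGKV6 sequences lie outside the comparisons. The library that pools the nodes and genotypes held 401 members among 2737 cells with 1 light chain, a share of 14.7% (13.3 to 16.0). Cells with 2 or more light chains held 542 IGKV6 contigs in the 6 libraries, and 24.8% of 2046 such cells held at least 1. The gene IGKV6-29, which is no member here, was called in 5 cells with 1 light chain.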

How the results depend on the processing

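The results were recomputed with each clone or each identical pair of junctions counted once, with light contigs of at least 3 UMIs, with cells that also had 1 heavy contig, without calls that name more than 1 gene, and where they apply over kappa cells, by the V identity column, with identical heavy junctions as clones or at 35 cells. Added after seeing the data were each library left out in turn, IGKV6-13 left out, junctions without the cysteine codon and other measures of mutation. In 191 of 201 recomputed values the direction and call, or the size, held, with 3 of these, all for the 5xFAD dCLN minus iLN share, turning sign within their intervals: from 0.344 to -0.101 points with each clone once, -0.0739 with identical pairs once and -0.0695 with 1 heavy contig. Without IGKV6-13 the share of junctions without N bases was 1.60 points higher in IGKV6, against -0.386 with it. The IGKJ2 difference of -0.113 points ran from -0.801 to 0.593 with 1 library left out and turned sign without 5xFAD dCLN, 5xFAD sCLN, WT sCLN or 5xFAD iLN. The count of kappa V genes called in dCLN went to 2, against 1, with each clone once, with identical pairs once and with 1 heavy contig, and IGKV6-20 was called in all 3. The IGKV6 share of switched dCLN cells, 14.01 points higher in 5xFAD than in WT, was 11.0 points with each clone once and 12.2 with identical pairs once, with overlapping intervals. The mean difference in switched-cell mutation, 0.331 points, ran from 0.151 to 0.366 with other cells or measures and from 0.0520 (without WT iLN) to 0.524 with 1 library left out. The adjusted p of IGKJ1 and IGKJ5 ran from 0.104 to 0.156 with all 6 libraries, by the exact test. Samples could not be paired by replicate number, because each group has 1 library. Libraries were matched only by node, and the tests over 6 libraries compared groups of cells within each library. With 23 to 140 switched cells per library, shares among them carry wide intervals.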

Other observations

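In the library that pools the nodes and genotypes, IGKV6-15 was the most used member with 109 of 2737 cells (3.98%) and IGKV6-14 the least with 5 (0.183%), and IGKV6-20 was carried by 13 cells (0.475%). The 4-mismatch form of IGKV6-13 was found in 33 of its 41 cells (80.5%, interval 65.1 to 91.2). In that library the aligner's V match of IGKV6-13 ran past IMGT position 333 in 18 of 41 cells and no IGKV6-13 junction was assigned N bases, while in the other 6 libraries it did so in 0 of 369 cells and 63 junctions were assigned N bases.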
